A study of Mus musculus with 4 samples.

Results

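The Lyve1 macrophages of the B16 melanoma are a small cluster that the authors named Mac-Lyve1 in their cell table of the B16 library. All cells with that name were taken, which gave 53 of 6773 annotated cells, or 0.7825% (exact Clopper-Pearson 95% interval 0.5867 to 1.0223%). They were 2.26% of the 2349 cells in the macrophage clusters. They were compared with Mac-1 (724 cells), Mac-2 (350 cells) and Immature Mac (900 cells) of the same library. The study examined how CD40 agonist antibodies act on dendritic cells and macrophages of tumours. B16 is a melanoma cell line of C57BL/6 origin, and LLC is the Lewis lung carcinoma line. The B16 library was made on the 10x Genomics droplet platform from subcutaneous B16 tumours of C57BL/6J mice, pooled from 3 mice. A first LLC library came from mice labelled F11r fl/fl LysM-Cre-, which carry floxed F11r and no Cre driver, and a CITE-seq LLC library came from C57BL/6J mice. The labels give no treatment, age or time for any of them, and the whole series held 30023 cells.

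Macrophages that carry LYVE1, a receptor for the matrix sugar hyaluronan first known from lymphatic vessels, live along blood vessels and in connective tissue of skin, fat, heart and lung. They are known for scavenger receptors such as CD163 and MRC1, for the folate receptor FOLR2, and for long residence in the tissue. Their usual counterpart is a macrophage with little LYVE1, much MHC class II and more recent monocyte origin.

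The 3 marker genes lie on mouse build mm10 at chr7:110850607-110863239 on the minus strand (Lyve1), chr7:101839988-101857194 on the minus strand (Folr2) and chr6:124304656-124330527 on the plus strand (Cd163). Upstream sequence is shown for Folr2 and Cd163, the markers with a RefSeq promoter window (build GRCm38.p6; none for Lyve1), and for Fcna and Retnla, the genes among the 20 highest of the cluster whose windows held a motif match. The motifs searched on both strands were the MAF core site TGCTGAC and the PU.1 site GAGGAAGT, which do not overlap in sequence. Matches are in capitals, the run is 5′ to 3′ on the gene's strand, and bases that the gene annotation places inside the gene are left out. The Folr2 line is chr7:101857195-101857440, minus strand, the Cd163 line chr6:124304401-124304650, plus strand, the Fcna line chr2:25628031-25628224, minus strand, and the Retnla line chr16:48842359-48842550, plus strand.
Folr2: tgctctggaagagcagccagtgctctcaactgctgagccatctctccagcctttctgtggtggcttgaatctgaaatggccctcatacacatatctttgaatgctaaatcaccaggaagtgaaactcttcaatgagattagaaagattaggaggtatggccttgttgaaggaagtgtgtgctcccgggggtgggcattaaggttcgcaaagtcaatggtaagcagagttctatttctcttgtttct
Cd163: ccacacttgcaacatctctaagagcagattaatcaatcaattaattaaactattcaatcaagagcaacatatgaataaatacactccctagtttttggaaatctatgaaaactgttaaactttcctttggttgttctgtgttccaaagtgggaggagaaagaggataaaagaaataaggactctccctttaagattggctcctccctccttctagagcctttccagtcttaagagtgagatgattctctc
Fcna: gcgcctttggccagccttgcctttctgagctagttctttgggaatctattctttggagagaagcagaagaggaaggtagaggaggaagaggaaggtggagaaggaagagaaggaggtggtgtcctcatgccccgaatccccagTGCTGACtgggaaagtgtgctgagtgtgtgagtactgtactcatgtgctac
Retnla: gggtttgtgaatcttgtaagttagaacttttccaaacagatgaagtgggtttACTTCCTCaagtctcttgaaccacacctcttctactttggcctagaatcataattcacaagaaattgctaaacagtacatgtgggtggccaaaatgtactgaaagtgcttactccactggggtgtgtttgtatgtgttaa
Windows of 250 bases before the start were found for 15 of the 20 highest genes, in 17 windows. The MAF letters were in 2 of the 17 windows, those of Fcna and Retnla, and in 1252 of 32851 windows of all genes (3.81%). In Retnla this match lies in the 58 bases that are left out. The PU.1 letters were in 1 of the 17, that of Retnla, and in 802 of all windows (2.44%). A match describes letters only, and no binding was measured. The search was extended from the markers to the 20 highest genes after their values were seen.

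The Mac-Lyve1 cells held a median of 14471 unique molecular identifiers (UMIs, counted RNA molecules; range 2522 to 30741) and a median of 3416 genes, with 4.03% of UMIs from mitochondrial genes. Median depth was 16167.5 UMIs in Mac-1, 11158 in Mac-2 and 8846.5 in Immature Mac. No barcode of a Mac-Lyve1 cell occurred in either LLC library, while 29 barcodes of all B16 cells occurred in the LLC and 20 in the CITE-seq LLC library. Expression is given as the UMIs of a gene summed over a cluster, scaled to a common total (counts per 1000000 UMIs, CPM). Each group was 1 library, so cells are not replicates and no test was made. Bracketed ranges are exact 95% intervals, which take in counting error alone. "Higher" and "lower" mean a CPM ratio of at least 1.5-fold, which is a rule of size. Where 3 values follow "against" without names, they are those of Mac-1, Mac-2 and Immature Mac in that order. The genes were open to the authors' clustering, so a difference between clusters is a description.

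Macrophage genes were present in most cells of the cluster, apart from Mertk. Csf1r, the receptor for the macrophage growth factor CSF1, was found in 49 of the 53 cells, Adgre1 (F4/80) in 49, and the complement gene C1qa in 50. C1qb was found in 51 cells, Cd68 in 50, Fcgr1 in 42 and Mertk in 24. Of the 4 clusters, this one was lowest in Cd68 (692 CPM, against 921, 967 and 760) and Fcgr1 (241 CPM, against 397, 328 and 628). It was highest in Csf1r, Adgre1 and Mertk. Genes of lymphatic vessels were at the floor: Pdpn had 1 UMI and Cdh5 had 1 UMI in the whole cluster, and Prox1 and Flt4 are not in the table. Of 7 endothelial genes in the table, 2 were at 0 and the summed level was 20.1 CPM, against 48.6 CPM in Mac-1, 76.4 in Mac-2 and 110.1 in Immature Mac. The B cell gene Ms4a1, the NK cell genes Ncr1 and Klrb1c, the neutrophil gene Cxcr2 and the dendritic cell genes Flt3 and Xcr1 had 0 UMIs. Other genes of these types were present. Of the B cell genes, Ighm reached 242 CPM in 38 cells (against 136, 59.2 and 48.8). Cd79b reached 14.7 CPM (against 84.9, 56.7 and 7.84), and Cd79a had 1 UMI. The NK cell genes Klrd1 and Nkg7 reached 50.9 CPM (against 28.7, 16 and 21) and 118 CPM (against 105, 39.0 and 76.3). Csf3r of neutrophils and monocytes reached 40.2 CPM in 19 cells (against 35.7, 33.8 and 29.6), and Zbtb46 had 2 UMIs in 1 cell. T cell genes summed to 382 CPM, against 454 CPM in Mac-1, 414 in Mac-2 and 691 in Immature Mac, and none of the 16 was at 0. A Cd3d, Cd3e or Cd3g UMI was present in 16 of the 53 cells. Haemoglobin UMIs numbered 3348, of which 3339 (99.7%) were in 1 cell, so the 4 of 4 red cell genes that were higher in the cluster rest on that cell. Other lists of foreign cell types were short: NK cell genes were higher than all 3 clusters in 1 of 5 measured and lower in 1, B and plasma cell genes in 1 and 1 of 3, melanocyte genes in 1 and 2 of 7, and neutrophil genes in 0 and 3 of 4. T cell genes were higher in 0 of 14 and lower in 2, endothelial genes lower in 2 of 2, and dendritic cell (2 measured) and fibroblast (1 measured) genes in neither direction. No mast cell gene was measured. Over all 7518 genes measured in the 3 comparisons, 11.2% were higher than all 3 clusters and 9.40% lower. Most of these lists hold too few measured genes to be set against those shares.

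Lyve1 was found almost wholly in this cluster. It reached 624 CPM (568 to 683) in Mac-Lyve1, had 0 UMIs in Mac-1 and in Mac-2, and had 1 UMI among the 900 Immature Mac cells. The cluster held 466 of the 471 Lyve1 UMIs of all B16 cells (98.9%), and the other 5 UMIs were in 5 cells, 1 of them among 594 CD8 T cells. Within the cluster Lyve1 was uneven. A Lyve1 UMI was present in 31 of 53 cells, or 58.5% (44.1 to 71.9%), and in 47.2% after each cell was thinned to 2000 UMIs.

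Folr2, which binds folate at the cell surface, was the most widespread of the markers. It reached 1197 CPM (1119.6 to 1278) in Mac-Lyve1, against 35.9 CPM in Mac-1, 18.5 CPM in Mac-2 and 15.6 CPM in Immature Mac. Those values are 33.3-fold, 64.7-fold and 76.9-fold apart. A Folr2 UMI was present in 45 of 53 cells (84.9%), and in 16.7% of Mac-1, 8.0% of Mac-2 and 7.67% of Immature Mac cells. At 2000 UMIs per cell these shares were 73.6%, 6.12%, 2.04% and 2.47%. In CD8 T cells, a type not known for the gene, 1.01% of 594 cells (median depth 9614.5 UMIs) had a Folr2 UMI, or 0.169% at 2000 UMIs. Free RNA, doublets and low expression were not told apart there. The cluster held 51.7% of all Folr2 UMIs of the tumour.

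Cd163, the scavenger receptor for haemoglobin bound to haptoglobin, was sparse. It reached 106 CPM (83.7 to 132) in Mac-Lyve1 and 1.18 CPM in Mac-1, and had 0 UMIs in Mac-2 and in Immature Mac. A Cd163 UMI was present in 11 of 53 cells (20.8%), in 7.55% at 2000 UMIs per cell, and 31.6% of its UMIs came from a single cell. All 11 cells also held Lyve1 and Folr2. The 3 markers together were present in 11 cells, any 2 in 20 cells, 1 in 14 cells and none in 8 cells. Mac-Lyve1 held 66.9% of all Cd163 UMIs of the tumour. Cd163 was also found in plasmacytoid dendritic cells (9.64 CPM, in 8 of 116 cells). At 2000 UMIs per cell its share there was 4.31% (1.41 to 9.77%), against 7.55% (2.09 to 18.2%) in Mac-Lyve1.

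**Figure D1:**
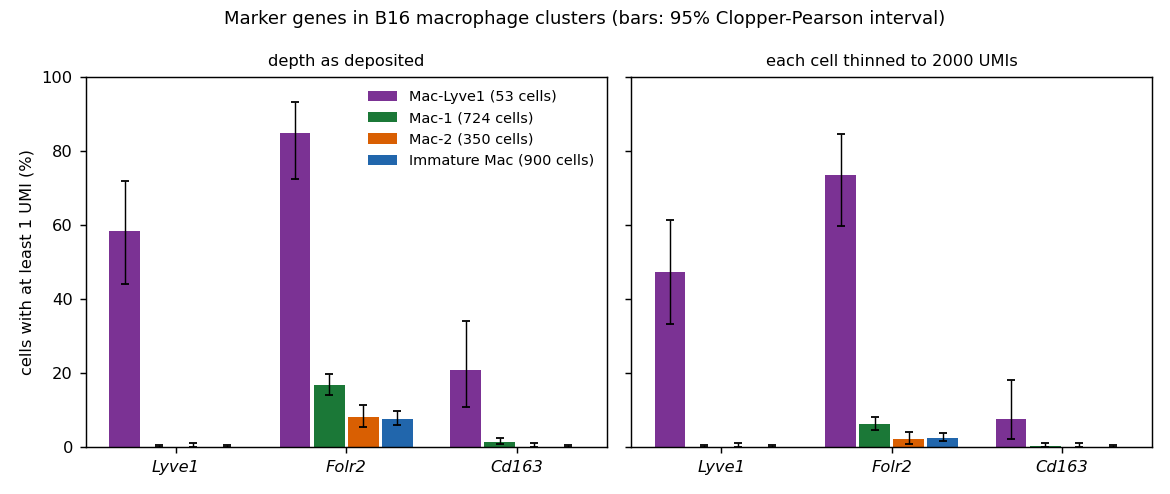
Share of cells (%, y axis) with at least 1 UMI of Lyve1, Folr2 or Cd163 in the 4 B16 clusters, at the deposited depth and after thinning each cell to 2000 UMIs; error bars are 95% Clopper-Pearson intervals. Folr2 was in 84.9% of Mac-Lyve1 cells, Lyve1 in 58.5% and Cd163 in 20.8%, and all 3 shares were lower after thinning.

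Genome-wide, 7518 genes were measured in all 3 comparisons, and Mac-Lyve1 was higher than all 3 other clusters in 845 of them (11.2%) and lower than all 3 in 707 (9.40%). Against Mac-1 alone, 16.4% of genes were higher and 21.2% lower. Against Mac-2, 28.4% were higher and 19.1% lower, and the higher genes were 59.8% of those called. That share was 45.9% when the ratios were centred on their median. Against Immature Mac, 22.2% were higher and 18.4% lower. The median log2 ratio of all measured genes was -0.03 against Mac-1, 0.19 against Mac-2 and 0.09 against Immature Mac.

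The 20 highest genes, ranked by the weakest interval bound over the 3 comparisons, included the 3 markers and held further uptake, secreted and signalling genes. Retnla, a secreted protein known from alternative activation of macrophages by type 2 cytokines, was the most abundant of them. It reached 3374 CPM (3243 to 3508), against 0.505 CPM in Mac-1, 0.493 CPM in Mac-2 and 5.74 CPM in Immature Mac. It came from 27 of the 53 cells, and 1 cell gave 23.6% of its UMIs. Cd209f, a C-type lectin of the DC-SIGN family, reached 469.9 CPM in 11 cells and at most 0.221 CPM elsewhere. Its neighbour in the family, Cd209g, reached 228 CPM in 9 cells, and 8 of these also held Cd209f.

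Among the highest genes, 4 further ones encode surface receptors. Ednrb, an endothelin receptor, reached 651 CPM in 44 cells, against 0.842, 0.740 and 6.40 CPM in Mac-1, Mac-2 and Immature Mac. Fgfr1, a fibroblast growth factor receptor, reached 163 CPM in 35 cells and at most 0.552 CPM in the other 3. Lifr, the receptor for leukaemia inhibitory factor, reached 191 CPM in 43 cells, against 9.60, 2.22 and 6.95 CPM. Clec10a, a lectin for galactose-type sugars, reached 406 CPM in 47 cells, against 24.3, 10.1 and 27.3 CPM. These receptors were found in most cells of the cluster, unlike Cd209f.

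Secreted and enzymatic products made up most of the rest. Ltc4s, which makes leukotriene C4, reached 639 CPM (583 to 699) and at most 4.19 CPM elsewhere. Cbr2, a carbonyl reductase, reached 1151 CPM (1076 to 1231) and at most 16.3 CPM elsewhere. Gas6, the bridging ligand that ties dying cells to TAM-family receptor kinases, reached 534 CPM, against 28.0 CPM in Mac-1, 12.6 in Mac-2 and 2.76 in Immature Mac. Fcna, a ficolin that recognises sugars and starts the lectin pathway of complement, reached 339 CPM and at most 3.45 CPM elsewhere. Lyz1, the lysozyme of the intestinal type, reached 783 CPM, but in 23 cells, and 1 cell gave 29.1% of its UMIs. Lyz1 is a close copy of the macrophage lysozyme Lyz2 (14929 CPM here), so reads that the counting could not tell apart make its value uncertain. The other 6 of the 20, Lrg1, Calml4, Rcn3, Fxyd2, Serpinb1a and Npl, lay between 93.7 and 218 CPM in Mac-Lyve1 and at most 12.6 CPM in the other clusters.

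**Figure D2:**
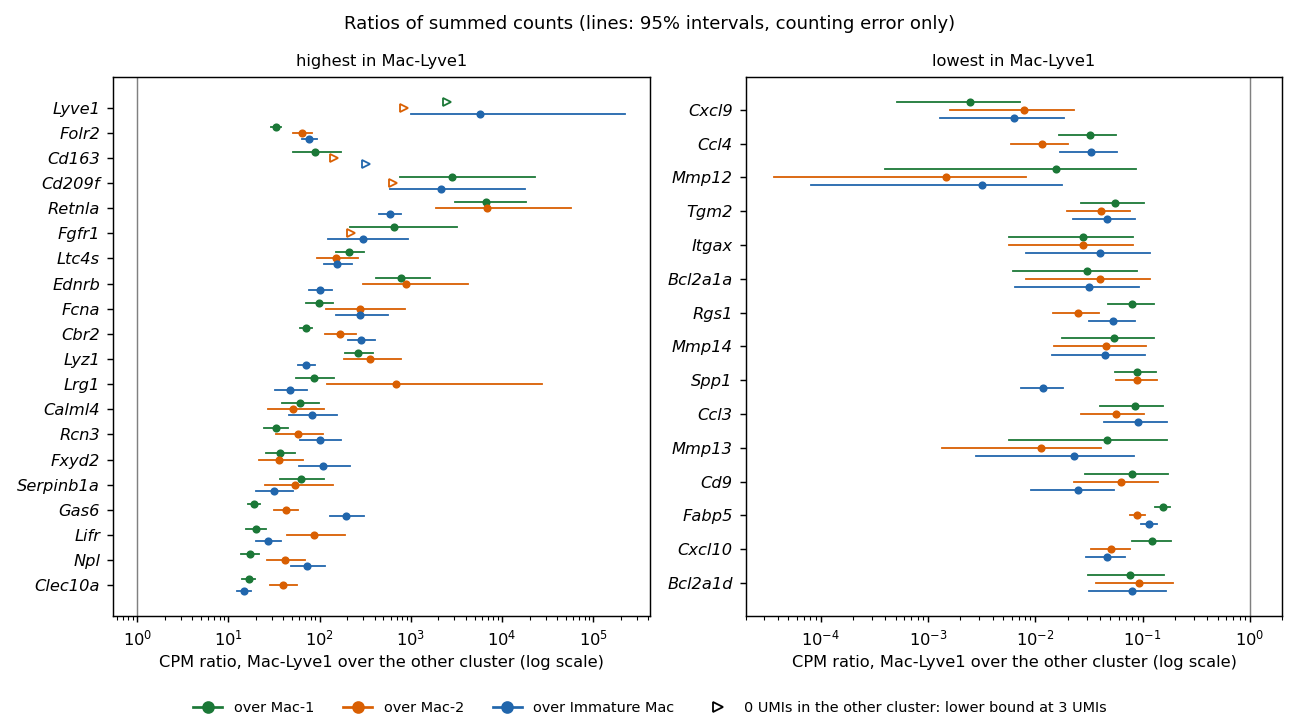
CPM ratio of Mac-Lyve1 over Mac-1, Mac-2 and Immature Mac (x axis, log scale) for the 20 highest and 15 lowest genes; points are ratios of summed counts, lines 95% intervals for counting error, and open triangles lower bounds where the other cluster had 0 UMIs. All highest genes lie above 1 and all lowest genes under 1, which the ranking fixes.

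The 15 lowest genes held 4 chemokines (Cxcl9, Ccl4, Ccl3 and Cxcl10) and 3 metalloproteases (Mmp12, Mmp13 and Mmp14). Cxcl9, a chemokine that draws CXCR3-bearing T cells, reached 4.02 CPM (0.828 to 11.7) in Mac-Lyve1, against 1617 CPM in Mac-1, 509 CPM in Mac-2 and 638 CPM in Immature Mac. Ccl4, another chemokine, reached 16.1 CPM, against 497, 1393 and 487 CPM. The macrophage elastase Mmp12 had 1 UMI in the cluster, 1.34 CPM, against 85.6, 918 and 419 CPM. Spp1 (osteopontin) reached 29.5 CPM, against 334 CPM in Mac-1, 329.7 in Mac-2 and 2485 in Immature Mac. Itgax (CD11c) was found in 3 cells at 4.02 CPM, against 144 CPM in Mac-1 and 146 CPM in Mac-2. Fabp5, a fatty acid carrier, was the lowest-ranked gene that most cells still held: 199 CPM in 33 cells, against 1294, 2235 and 1742 CPM. The remaining 9 were Tgm2, Bcl2a1a, Rgs1, Mmp14, Ccl3, Mmp13, Cd9, Cxcl10 and Bcl2a1d. For Cxcl10, 68.0% of the UMIs of the cluster came from 1 cell. Bcl2a1a and Bcl2a1d are near-identical copies, so their split is uncertain.

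Gene lists are described by counts and medians beside those of all 7518 genes, of which 11.2% were higher and 9.40% lower than all 3 other clusters. The lists were drawn up with earlier results of these data known, so their counts are not independent evidence of a direction. Members outside the 4 examples that a rule picked for each list were chosen after their values were seen. Of 25 measured genes of resident macrophages, 21 were higher than all 3 clusters and 1 was lower, and 8 of the list are among the 20 highest genes. Their median log2 ratios were 3.61, 3.14 and 2.67 against Mac-1, Mac-2 and Immature Mac. The members Retnla, Ednrb, Ltc4s and Fcna had 6, 10, 36 and 41 UMIs in Mac-1. Cbr2 had 28 UMIs in Mac-2 and 37 in Immature Mac. These members passed the filter on low counts only through Mac-Lyve1, so they could only be called higher. A count without such members was not made, so the 21 of 25 is in part fixed by the filter. Besides genes named above, F13a1, a coagulation transglutaminase, reached 1612 CPM, against 48.2, 40.4 and 276 CPM. Selenop, a selenium carrier, reached 2399 CPM in 52 cells, against 444, 272 and 132 CPM. Igf1, a growth factor, reached 162 CPM, against 54.0, 54.2 and 6.84 CPM. The member that was lower was Cx3cr1, the fractalkine receptor, at 32.1 CPM, against 182, 52.8 and 56.7 CPM.

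Scavenger and uptake receptors were higher than all 3 clusters in 10 of 16 measured genes and lower in 2, with medians of 2.03, 2.81 and 3.00. The 10 include Lyve1, Folr2 and Cd163, and Lyve1, Cd163, Cd209f and Cd209g passed the filter on low counts only through Mac-Lyve1. Without the 3 markers, 7 of 13 were higher and 2 lower, with medians of 0.99, 2.14 and 1.83. Mrc1 (CD206), the mannose receptor, was in all 53 cells at 1376 CPM (1293 to 1463), against 262, 127 and 144 CPM. Fcgrt, the neonatal Fc receptor, reached 859 CPM, against 151, 77.9 and 32.4 CPM. Stab1, a scavenger of modified proteins and dead cells, reached 278 CPM, against 139.7, 61.6 and 78.1 CPM. The lower pair was Axl (24.1 CPM, against 185, 143 and 102) and Msr1 (139 CPM, against 246, 241 and 394). Gas6, the ligand of AXL, was thus high in a cluster whose own Axl was low. In the list of efferocytosis and bridging molecules, 4 of 15 were higher and 5 lower. Pros1, the other bridging ligand, reached 85.7 CPM, against 25.0, 5.42 and 5.96 CPM.

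Of 15 complement genes 4 were higher and 1, Itgax, was lower. Those higher included Cfp (properdin, 857 CPM, against 183, 119.6 and 222), C4b (319.9 CPM, against 58.8, 19.5 and 11) and Cfb (42.8 CPM, against 17.3, 11.8 and 15.1). Among 14 iron and haem genes 4 were higher, Cd163, Cp, Hfe and Steap3, and 2 were lower. Cp, the ferroxidase ceruloplasmin, reached 100.4 CPM, against 16.5, 12.1 and 0.993 CPM. The lower genes were Spic, with 0 UMIs, and Fth1, the ferritin heavy chain, at 8039 CPM, against 15952, 37905 and 22632 CPM. In lipid handling 3 of 20 were higher and 6 lower. Pltp, a phospholipid carrier, reached 1680.1 CPM, against 125, 128 and 67.8 CPM. Apoe reached 15344 CPM, against 7368, 4881 and 3058 CPM. Cd9, Gpnmb, Fabp4, Fabp5, Pparg and Nr1h3 were lower. Fabp4 had 0 UMIs in the cluster and 168 CPM in Mac-2.

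Chemokines split in opposite directions. Of 16 measured, 5 were higher than all 3 clusters and 10 lower, so the medians (-1.58, -1.32 and -1.55) describe the larger set. The 5 higher ones reached high levels. Ccl6 stood at 8449 CPM in all 53 cells, against 413, 398 and 1479 CPM. Ccl9 stood at 2165 CPM in all 53 cells, against 164, 240.4 and 706 CPM. Pf4, a chemokine shared with platelets, stood at 2109.8 CPM, against 551, 396 and 606 CPM. Ccl24, which acts on CCR3 of eosinophils, stood at 182 CPM, against 3.45, 0.493 and 94.6 CPM. Ccl8 stood at 3645 CPM in 31 cells, against 2240.2, 772 and 87.4 CPM. The lower ones included Ccl2, which draws monocytes, at 347 CPM, against 1013, 564 and 2044 CPM, and Cxcl16 at 99.1 CPM, against 502, 651 and 369 CPM. The summed chemokine level, 17745 CPM, was above the 8997, 6965 and 10079 CPM of Mac-1, Mac-2 and Immature Mac.

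Inflammatory cytokines were lower than all 3 clusters in 8 of 9 measured genes and higher in 0, with medians of -1.97, -3.45 and -3.11. Tnf had 0 UMIs in the 53 cells, against 30.4, 69.8 and 34.8 CPM. Il1b reached 8.03 CPM in 4 cells, against 65.8, 87.8 and 699 CPM. Hypoxia and glycolysis genes were lower in 17 of 20 and higher in 0, with medians of -1.03, -2.59 and -1.91. Slc2a1, the glucose transporter GLUT1, reached 16.1 CPM, against 72.6, 342 and 261 CPM. Vegfa, the vessel growth factor, had 1 UMI in the cluster, against 20.8, 189 and 163 CPM. Gapdh reached 1473 CPM, against 3300.0, 6311 and 4614 CPM. Dissociation stress genes were lower as well, in 8 of 18, with medians of -0.41, -1.59 and -2.07. Hspa1b, a heat shock gene, had 2 UMIs, 2.68 CPM, against 49.7, 495 and 217 CPM. Whether handling of the cells bears on the cytokine and hypoxia values was not tested.

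Of 14 measured genes on the list of suppressive macrophages, which also holds Mrc1, Spp1 and Vegfa, 7 were lower than all 3 clusters and 3 were higher (Mrc1, Lgals9 and Vsir). The medians were -0.77, -0.67 and -1.34. Vsir (VISTA), an inhibitory ligand, reached 356 CPM in 52 cells, against 199, 169.7 and 158 CPM. Cd274 (PD-L1) reached 24.1 CPM, against 68.7, 246 and 165 CPM. Havcr2 (TIM-3) reached 4.02 CPM in 2 cells, against 43.8, 41.9 and 52.4 CPM. Among growth and vessel factors 4 of 15 were higher, Igf1, Nrp1, Ang and Mmp19, and 8 lower.

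Cd40, the receptor that the study's agonists engage, was present in 29 of 53 cells at 64.3 CPM (47.4 to 85.2). It reached 40.7 CPM in Mac-1, 61.4 CPM in Mac-2 and 50.8 CPM in Immature Mac, and 242 CPM (217 to 269) in migratory dendritic cells. The ratio was 1.58 (1.15 to 2.12) against Mac-1, 1.05 (0.752 to 1.43) against Mac-2 and 1.27 (0.920 to 1.71) against Immature Mac, and the first of these did not reach 1.5-fold when cells were thinned to 2000 UMIs. Of 17 measured genes of CD40 signalling and costimulation 0 were higher than all 3 clusters and 4 were lower: Cd83, Cd86, Icosl and Tnfsf9. Icosl rests on 5 UMIs, and its intervals included 1 in all 3 comparisons. Cd86, a ligand of CD28, reached 40.2 CPM, against 60.3, 92.7 and 153 CPM. The other 13 were in neither set, among them Nfkb1, an NF-kappaB subunit, at 95 CPM against 96.2, 90.5 and 92.1 CPM.

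MHC class II genes gave no direction over the whole cluster, as 0 of 9 were higher and 0 lower than all 3 clusters. H2-Ab1 reached 3063 CPM, against 3371, 1957 and 4506 CPM. Interferon response genes were lower than all 3 in 9 of 26 and higher in 0, with medians of 0.35, -0.83 and -1.13. For 6 of those 9 the intervals excluded 1 in all 3 comparisons. Against Mac-1 alone, 9 of the 26 were higher and 11 lower. The summed level of the list was 7414 CPM, against 5367, 6950.1 and 9244 CPM. Gbp2 reached 49.5 CPM, against 309.5, 142 and 313 CPM. Classical monocyte genes were high in the median against the mature clusters (1.61 and 1.18) and low against Immature Mac (-2.02). Of 12 measured, 2 were higher than all 3 clusters, F13a1 (values above) and Fn1 (1193 CPM, against 31.8, 9.62 and 555). Thbs1 was lower than all 3, at 18.7 CPM, against 40.6, 98.9 and 701 CPM. Ccr2, the receptor for CCL2, reached 657 CPM, against 81.5, 30.8 and 642 CPM, and Ly6c2 reached 37.5 CPM, against 19.6, 23.7 and 324 CPM. Proliferation genes were lower than all 3 in 4 of 11, and for 2 of these the intervals excluded 1 in all 3 comparisons. Top2a had 6.69 CPM in 3 cells, with a ratio of 0.527 (0.168 to 1.27) against Immature Mac.

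Among 32 transcription factors 4 were higher, Maf, Klf2, Tcf4 and Rxra, and 9 were lower. Maf, a regulator of resident macrophage genes, was in 52 cells at 738 CPM, against 329.7, 187 and 337 CPM. Klf2 reached 474 CPM, against 64.1, 114 and 74.7 CPM. Pparg, a lipid-sensing receptor, reached 4.02 CPM in 3 cells, against 58.0, 56.0 and 18.5 CPM. Growth factor receptors were higher in 5 of 16: Csf1r (705 CPM, against 314, 214 and 329), Il4ra, Il6ra, Tgfbr2 and Tnfrsf1a. Tgfbr1 was the lower one, at 10.7 CPM, against 104, 80.4 and 38.6 CPM. The lysosomal list held 3 higher genes of 23 and 0 lower ones, and Lyz2, the macrophage lysozyme, led it at 14929 CPM, against 3731, 1230.0 and 6251 CPM. Of 10 Fc receptor genes 3 were higher, Fcgrt, Fcrls and Pirb, and Fcgr4 was lower, at 162 CPM, against 850.1, 524 and 390.2 CPM. Chemokine receptors were higher in 0 of 7 and MHC class I genes in 0 of 15, and 2 of each list were lower.

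**Figure D3:**
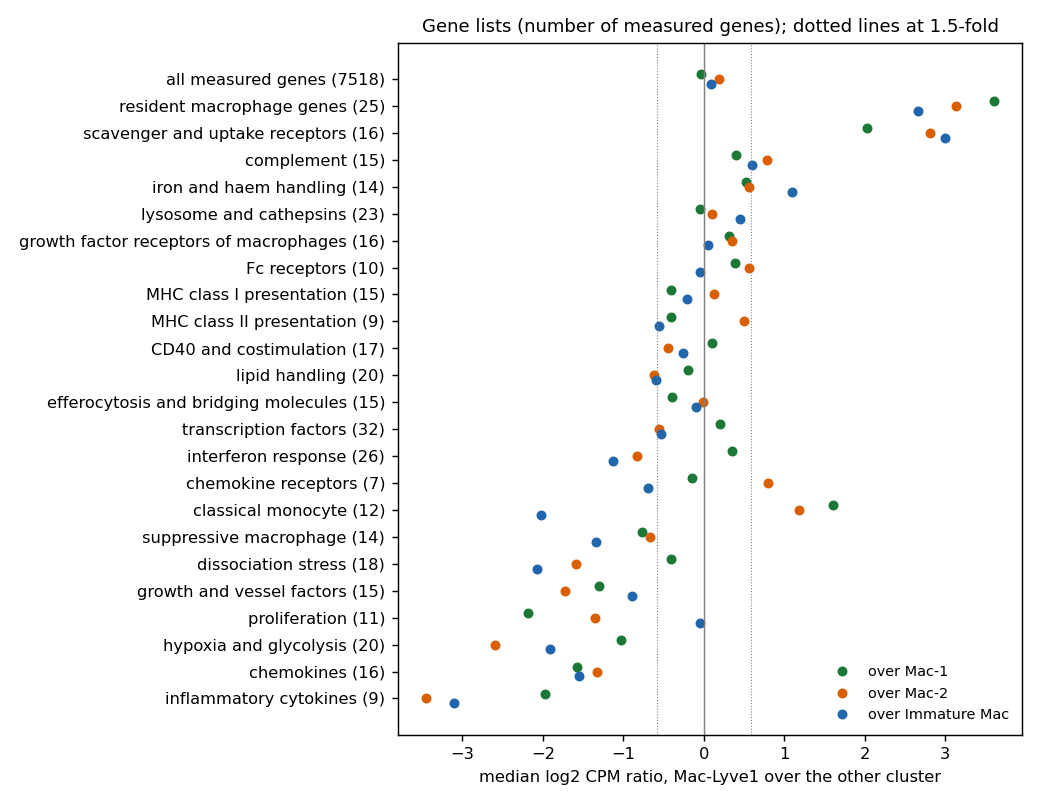
Median log2 CPM ratio of Mac-Lyve1 over each of the other clusters (x axis) for each gene list, with the number of measured genes in brackets; the top line is all measured genes and the dotted lines mark 1.5-fold. Resident macrophage genes and scavenger receptors lie to the right (medians 2.03 to 3.61), and inflammatory cytokines, chemokines and hypoxia genes to the left in all 3 comparisons. The scavenger list holds the 3 markers. Both lists on the right hold genes that passed the filter on low counts only through Mac-Lyve1.

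The cluster was not uniform, and the cells with and without a Lyve1 UMI differed in many other genes. This split was made after the values were seen and rests on a measured gene, so it is a description of 53 cells of 1 library. The 31 cells with a Lyve1 UMI had a median of 16252 UMIs and the 22 without one had 9242.5. A cell without a Lyve1 UMI need not lack Lyve1 RNA at this depth. Of 4628 genes measured in this comparison, 20.5% were higher in the cells with Lyve1 and 16% lower. The 22 cells without a Lyve1 UMI still lay past 1.5-fold against all 3 other clusters in 16 of the 20 highest genes. The exceptions were Lyve1, Cd209f, Cd163 and Npl. The same held for all 15 lowest genes. Both sets of genes were ranked with these 22 cells included.

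Uptake receptors and Ccl8 went with Lyve1. Ccl8, a chemokine known from dermal and resident macrophages, had 5849 CPM (5630.4 to 6073) in the cells with a Lyve1 UMI and 63.3 CPM in those without. It was detected in 25 of 31 and in 6 of 22 cells. The ratio was 92.4-fold (58.4 to 156), 39.3-fold after thinning to 2000 UMIs and 51.2-fold without the cells that held a Cd3 UMI. The value over the whole cluster, 3645 CPM, thus stood for neither set. Folr2 had 1749 CPM with and 299 CPM without Lyve1, in 31 of 31 and 14 of 22 cells. Cd163 and Cd209f were each found in 11 of the 31 cells and in 0 of the 22, though only 4 cells held both. Fcna had 525 CPM with and 35.1 CPM without, a 14.9-fold difference that was 2.94-fold after thinning. Stab1 had 411 and 63.3 CPM (6.49-fold, 3.41-fold after thinning), and Fcgrt 1276 and 183 CPM (6.98-fold, 4.21-fold after thinning). Wfdc17, a small secreted protease inhibitor, had 12374 CPM with and 1975 CPM without. Leaving out Lyve1, which made the split, scavenger receptors were higher in 12 of 15 and lower in 2 (median log2 ratio 2.11, against 0.04 for all genes). Of the 15, Cd163, Cd209f and Cd209g had 0 UMIs in the cells without Lyve1. They passed the filter on low counts only through the cells with it, so they could only be called higher. Complement genes were higher in 10 of 14.

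MHC class II and monocyte genes went the other way. H2-Ab1 had 1477 CPM (1368 to 1592) in the cells with a Lyve1 UMI and 5641 CPM (5369 to 5924) in those without. Per cell, the median was 5.05 UMIs per 10000 with Lyve1 and 47.1 without, and the ranges overlapped (0 to 87.4 and 0 to 110.4). The invariant chain Cd74 had 4452 and 12756 CPM. Of 9 class II genes 7 were lower and 1 higher in the cells with Lyve1 (median -1.83). Ccr2 was found in all 22 cells without Lyve1 (1097 CPM) and in 15 of 31 with it (387 CPM). Fn1, fibronectin, had 2724 CPM without and 251 CPM with Lyve1, a 10.9-fold difference that was 5.51-fold after thinning. Classical monocyte genes were lower in 9 of 11 and higher in 1 (median -1.50). Retnla, in 13 of 22 and 14 of 31 cells, was 6327 CPM without and 1557 CPM with Lyve1. Lyz1 had 1596 CPM without and 283 CPM with Lyve1 (5.63-fold, 3.70-fold after thinning).

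RNA of other cell types also differed between the sets. The T cell list summed to 921 CPM in the cells without Lyve1 and 49.7 CPM in those with it, and 79 of the 88 Cd3 UMIs were in 10 of the 22 cells without Lyve1. NK cell genes summed to 520.2 CPM without and 17.3 CPM with Lyve1, and red cell genes to 11785 and 15.1 CPM, since the haemoglobin-rich cell has no Lyve1 UMI. The part of NK and red cell RNA in the class II and monocyte differences was not tested. Ccl5, which T cells also make, had 274 CPM without and 15.1 CPM with Lyve1. After the cells with a Cd3 UMI were left out, the cells without Lyve1 were 4.44-fold higher in H2-Ab1 (3.82-fold over all cells) and 3.32-fold higher in Ccr2 (2.83-fold). The difference was 7.93-fold in Fn1 (10.9-fold over all cells), 1.91-fold in Lyz1 (5.63-fold) and 2.46-fold in Ccl5 (18.1-fold). General macrophage genes differed as well: Csf1r had 422 CPM without and 880.0 CPM with Lyve1, and C1qa 2605 and 7053 CPM.

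**Figure D4:**
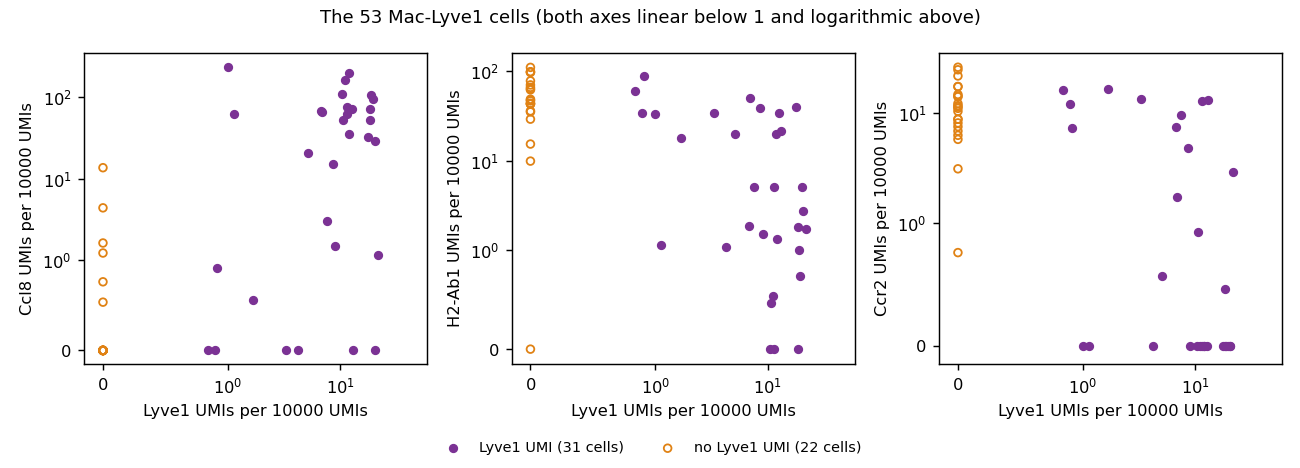
Ccl8, H2-Ab1 and Ccr2 (y axes) against Lyve1 (x axis) in each of the 53 Mac-Lyve1 cells, all as UMIs per 10000 UMIs of the cell, on axes linear below 1 and logarithmic above; filled points are the 31 cells with a Lyve1 UMI and open points the 22 without. Cells without Lyve1 have a median of 0 for Ccl8, 47.1 for H2-Ab1 and 11.1 for Ccr2, and cells with it 35.7, 5.05 and 0.

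A second annotation by the authors, over the LLC and B16 libraries together, named fewer cells. It called 42 of the 53 cells TAM Lyve1, and no other B16 cell had that name. Of these 42 cells 30 held a Lyve1 UMI. Of the other 11 cells, 4 were named Tregs-2, 3 Imm TAM-4, and 1 each Imm TAM-3, TAM-1, TAM-2 and cDC2. All 4 cells named Tregs-2 held a Cd3 UMI and none held Lyve1.

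LLC tumours held cells of the same name at a lower share. These LLC cells were chosen for comparison after the data were seen. TAM Lyve1 cells numbered 23 of 13021 LLC cells, 0.177% (0.112 to 0.265%), against 42 of the 6870 B16 cells of that annotation, 0.611% (0.441 to 0.825%). The tumours differ in line, mouse strain and library, which cannot be told apart here. Within LLC, 18 of the 19 highest genes of Mac-Lyve1 that could be measured were also higher in TAM Lyve1 than in all other tumour-associated macrophages (TAM), where 21.6% of 11355 genes were higher and 34.9% lower. Lyz1 was the exception. Cd209f is listed at 0 in the whole LLC library and was not compared. Of the 15 lowest genes 13 were lower in LLC as well, while Ccl3 had a ratio of 0.945 (0.599 to 1.42) and Fabp5 was higher. The name TAM Lyve1 was given over the LLC and B16 libraries together. These genes were open to that annotation, and the markers Lyve1, Folr2 and Cd163 are among the 19. The counts of 18 of 19 and 13 of 15 are thus not an independent check of the B16 result.

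The LLC cells had the same markers in other proportions. Lyve1 had 1225 CPM in LLC TAM Lyve1 and 735 CPM in B16 TAM Lyve1. Cd163 had 1221 CPM in LLC, in 18 of 23 cells, and 136 CPM in B16, a 9.0-fold difference (7.0 to 11.7). Folr2 stood at 767 CPM in the LLC cells and at 1469 CPM in those of B16. Among the other TAM, Folr2 was at 197 CPM in LLC against 24.5 CPM in B16. Ednrb had 1300.5 and 795 CPM, Gas6 559 and 672 CPM, and Ccl8 6827 and 4672 CPM. Retnla had 458 CPM in LLC, from 3 of 23 cells, and 2774 CPM in B16. H2-Ab1 stood at 329 CPM in the LLC cells and at 2657 CPM in those of B16, beside 751 and 3306 CPM in the other TAM of each tumour. Cd40 stood at 16.7 CPM in the LLC cells, from 4 UMIs, and at 70.4 CPM in those of B16. None of these differences between tumours has a replicate check.

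**Figure D5:**
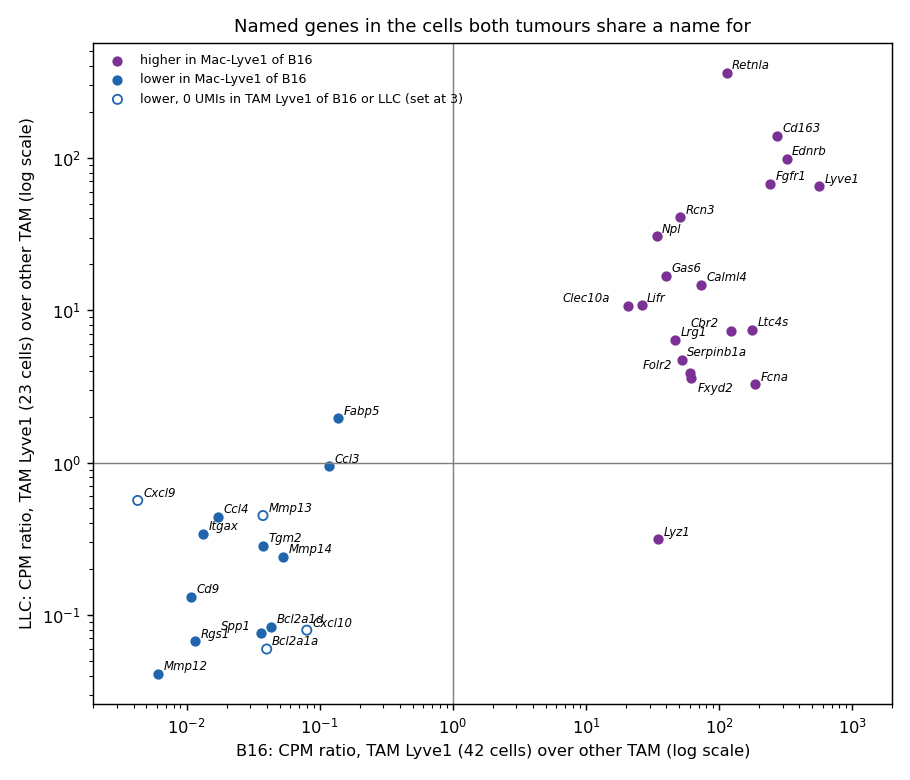
CPM ratio of TAM Lyve1 over all other TAM in B16 (x axis) and in LLC (y axis), both on log scales, for the genes named highest (purple) and lowest (blue) in Mac-Lyve1; open points had 0 UMIs in TAM Lyve1 of a tumour and are set at 3 UMIs. Cd209f is not drawn. All purple points but Lyz1 lie in the upper right, and Fabp5 lies above 1 in LLC and below 1 in B16. The name TAM Lyve1 was given over both libraries together, with these genes open to that annotation.

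Antibody tags exist for the CITE-seq LLC library alone, in which no cells carry the Lyve1 name. The group taken in their place was named TAM-4 in the authors' table of monocytes and macrophages. That annotation calls no Mac-Lyve1 cell TAM-4: it leaves out 49 of them and names the other 4 TAM-3. Whether TAM-4 is the counterpart of Mac-Lyve1 was not tested. In the CITE-seq LLC library TAM-4 was higher than TAM-1 to TAM-3 in 16 of 19 of the highest genes of Mac-Lyve1. Of 11246 genes there, 13.8% were higher and 4.53% lower. Lyve1 itself stood at 14.7 CPM in TAM-4 of that library. TAM-3, against the other TAM groups, was higher in 1 of the 19 genes and lower in 15. In the other LLC library TAM-3 was higher in 1 and lower in 13. The groups set against TAM-3 include TAM-4, which was high in most of these genes. No share over all genes was computed for TAM-3, so its counts have no base to be read against. Of the 15 lowest genes 6 were lower in TAM-4 and 3 were higher. In the other LLC library TAM-4 was higher in 13 of the 19 (15.3% of 11060 genes), and of the 15 lowest 8 were lower (7.42% of genes) and 2 higher. On the 2606 TAM-4 cells the CD163 tag made up 102 per 10000 tag UMIs, against 17.9 on the 3181 cells of TAM-1 to TAM-3. The CD206 tag made up 69.1 against 17.6, the VSIG4 tag 30.8 against 6.94, and the Tim4 tag 3.35 against 2.09. Rat IgG2a and IgG2b isotype controls made up 1.27 against 1.16 and 0.397 against 0.346. No surface protein was measured on the B16 cells.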

How the data were processed

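Single-cell RNA libraries of subcutaneous tumours were used, with the authors' deposited tables of UMI counts per gene and cell and their cell annotations. Cell Ranger and build mm10 are named in the submitters' processing notes, and no version, cell filter or clustering setting is given in these sources. The antibody tag values are deposited counts as well. Counts were summed over the cells of each cluster and divided by their total. A gene counted as measured when both sides together held 20 UMIs or more and 5 were expected in Mac-Lyve1, so that a gene found only in Mac-Lyve1 needed 85 UMIs against Mac-1. Intervals were exact (Poisson, conditional binomial or Clopper-Pearson), and PCR or cell-to-cell variation is not in them. A group with 0 UMIs was given a floor of 3 counts.

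The genes named were Lyve1, Folr2, Cd163, Cd40, the 20 highest by the smallest lower bound and the 15 lowest by the largest upper bound over 3 comparisons, and up to 4 examples per list. The highest needed a UMI in 10 cells and 50 CPM, and the lowest 50 CPM in each other cluster. Mitochondrial, ribosomal, predicted, immunoglobulin, T cell receptor, haemoglobin and sex-linked marker genes were left out of that ranking. The members and the 34 gene lists were chosen with earlier results of these data known. Coordinates came from GENCODE vM21 by symbol and promoters from RefSeq. Doublets were kept: of the 6% of cells (399) with the highest neighbour score, over 60 neighbours, 1 was Mac-Lyve1. The ratio code was tested on simulated data. Python 3.11.15, numpy 2.4.6, scipy 1.17.1, pandas 2.3.3, scikit-learn 1.9.0 and matplotlib 3.10.9 were used. Values of some list members are not reported here.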

Additional observations from a re-analysis of the deposited data

Results flagged for a closer look

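Lyz1 differed in direction between the tumours: its CPM ratio of TAM Lyve1 over the other TAM was 0.313 (0.135 to 0.617) in LLC, from 8 UMIs in 5 cells, and 35.0 (29.8 to 41.2) in B16. Fabp5 went the other way, with a ratio of 1.95 (1.73 to 2.20) in LLC and 0.138 (0.114 to 0.166) in B16. Each tumour was 1 library, so neither difference between the tumours was tested.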

How the results depend on the processing

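With 1 library for each tumour, no result has a replicate check, and depth limits what can be said of sparse genes such as Cd163. Ratios were recomputed for Cd40 and the 20 highest and 15 lowest genes, which include the 3 markers, and not for the list examples. All of these but Cd40 were picked for ratios far from 1, so a crossing of 1.5-fold was unlikely for them. Of 972 such ratios 970 kept their direction and their side of 1.5-fold. Both exceptions were Cd40 against Mac-1, with a log2 ratio of 0.57 after thinning and when mitochondrial and ribosomal protein genes were left out of the total. Of 846 list medians 753 stayed on their side of 1.5-fold, 55 passed it, 36 no longer did, and 2 that had been past it changed sign, both after thinning to 2000 UMIs: lipid handling against Immature Mac (0.21) and interferon response against Mac-2 (0.07). Counting smaller medians too, 32 of the 846 had the opposite sign. Among them was the T cell list against Mac-2, from 0.50 to -2.39 without the cells that held a Cd3 UMI and to -2.11 in the 42 cells named TAM Lyve1. Its medians against Mac-1 and Immature Mac were -2.93 and -3.05 without the cells that held a Cd3 UMI, an alternative chosen after seeing the data, as were those 42 cells, the scavenger list without its markers and the set without the haemoglobin-rich cell.

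Of 104 counts of genes 74 stayed within 1.5 times. After thinning, 494 genes were higher and 779 lower against Mac-1, 701 and 783 against Mac-2, 528 and 780 against Immature Mac, and 259 and 330 against all 3. With 20 UMIs expected in Mac-Lyve1 the counts were 569 and 838, 948 and 869, 691 and 809, and 336 and 331. At 2-fold they were 636 and 907, 1135 and 899, 810 and 872, and 357 and 355. With no filter but 1 UMI on each side, the higher genes numbered 2549, 3751, 3327 and 1709. Where the interval also had to exclude 1, the lower genes numbered 1119 against Mac-1 and 434 against all 3. Fewer genes are tested under thinning and the stricter filter, and more under none. The share of Mac-Lyve1 was 2.26% over macrophage clusters, and that of cells with a Cd163 UMI was 7.55% after thinning. No paired analysis was possible because each group is 1 library and no test was made.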
